A study of Auricularia auricula-judae with 2 samples.

Results

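Genes of the secretory pathway and of vesicle traffic were examined in Auricularia auricula-judae, a jelly fungus whose fruit bodies are eaten. They were chosen by description: a gene entered when any of its transcripts was described as a coat, adaptor, tether, SNARE, signal recognition, signal peptidase, Golgi, Arf or Ypt protein, without mannosyl enzymes. The rule found 324 transcripts of 276 assembled genes, among 57717 transcripts of 43428 genes in all. RNA-seq had been done on 2 groups of 1 library each. The irradiated group came from mycelium exposed to 200 Gy of gamma radiation on agar, and the control group from mycelium that was not exposed. Both had 14 days on agar at 25 °C and 30 days on sawdust with rice bran at 25 °C before fruiting at 18 °C and 90% humidity. The RNA came from the fruit bodies grown afterwards, and the labels name neither the strain nor how many fruit bodies went into a library.

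Proteins bound for the cell surface, the wall or the vacuole enter the endoplasmic reticulum (ER) through a channel to which the signal recognition particle brings them. COPII coats carry them in vesicles to the Golgi, COPI coats carry material back, and clathrin with its adaptors sorts cargo from the Golgi and the plasma membrane. Small GTPases of the Arf and Ypt (Rab) families mark the membranes, tethers such as TRAPP, COG and the exocyst catch the vesicles, and SNARE proteins fuse them. In filamentous fungi this route feeds the growing tip of the hypha with wall enzymes and secretes the enzymes that digest the substrate.

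Levels are the authors' FPKM (fragments per kilobase of transcript, scaled to library size), which allow genes of different length to be compared, summed here over all isoforms of an assembled gene. Ratios are log2 ratios of FPKM + 1, irradiated over control, among genes with 100 or more scaled reads, a measure of depth made from the authors' pair of further values. With 1 library in each group there is no replicate spread and no test, and an interval in the text is a 95% counting interval of the ratio of the authors' pair of values. The headers do not say which library each of the pair is, so the interval is that of the second over the first, the direction of the authors' own log2 fold change. The sign of that ratio was the same as that of the FPKM ratio in 65 of the 68 genes measured here. The interval covers counting error between these libraries only. A symbol names the closest Swiss-Prot match, often from another organism. As these were bulk samples, fewer cells of a type and less RNA per cell cannot be told apart. The libraries summed to 983895 FPKM (irradiated) and 970111 FPKM (control), and the median log2 ratio of the 8249 genes tested was 0.10, so ratios are read against this shift. Of the genes described as fruiting body proteins, 3 were measured, at 11.02 to 256 FPKM in the irradiated library and 8.99 to 137 FPKM in the control library.

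Of the 276 traffic genes, 68 had 100 or more scaled reads, and these held 99.2% of the reads of all 276. The other 208 were weakly covered. Fewer than 20 scaled reads fell on 189 of them, and 152 were at 0 FPKM in 1 library, 58 in the irradiated and 94 in the control library. These are 27.9% and 45.2% of the 208, against 28.5% and 35% of the 35179 genes of the whole table with under 100 scaled reads. The 68 measured genes had a median of 74.4 FPKM in the irradiated library and 63.4 FPKM in the control library, against 37.1 and 34.5 FPKM over all genes tested in the same libraries. Together they made up 0.932% of the FPKM of the irradiated library and 0.826% of that of the control library. Traffic genes thus stood above the middle of the genes tested in both libraries.

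**Figure D1:**
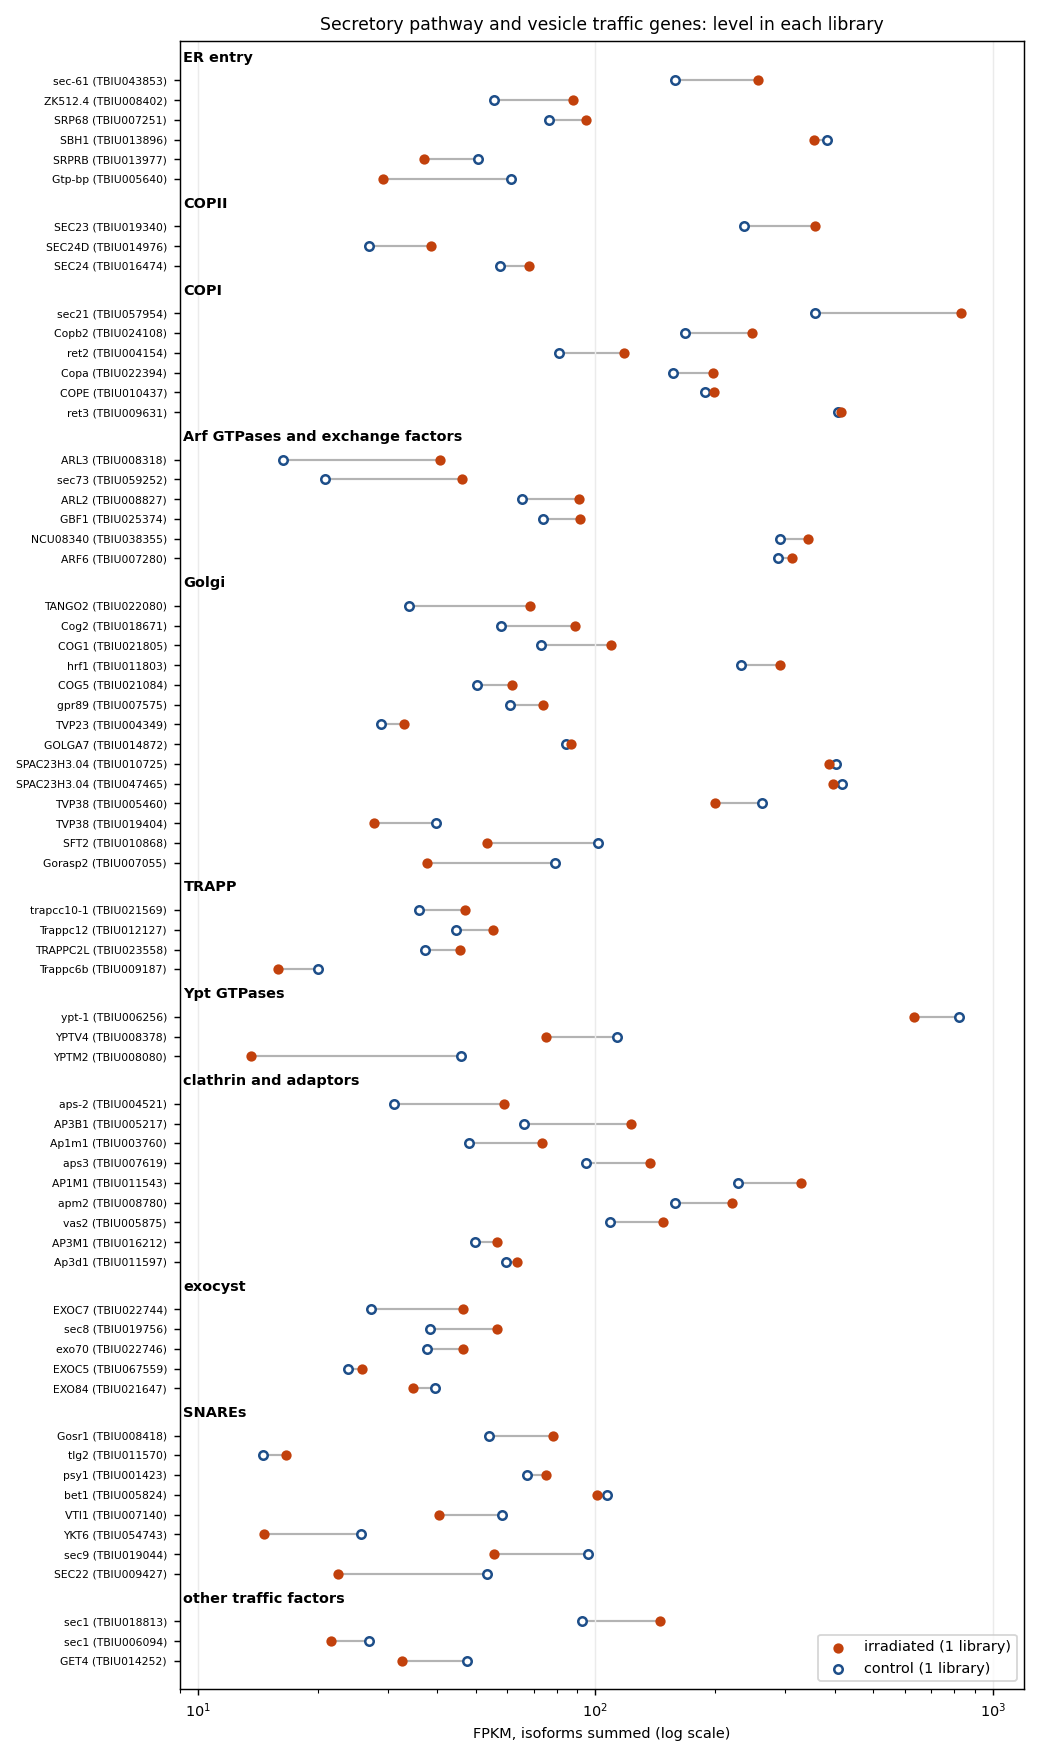
Level of the measured genes named in the text in the irradiated library (filled) and the control library (open), in FPKM on a log scale, grouped by role. Levels run from 13.6 FPKM to 833 FPKM, both in the irradiated library, and most pairs of points lie close together. The lowest is the gene that entered as YPTM2, whose main isoforms are described as Rab-18 and Rab-1B, and the highest is sec21.

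Few of these genes differed strongly between the libraries. With irradiated over control levels of 2-fold or more there were 3 of the 68 (4.41%), against 9.32% of all genes tested, and 4 (5.88%) were lower by as much, against 8.68% of all genes tested. Ratios relative to the median of all genes gave 3 genes higher and 5 lower, against 7.25% and 10.3% of all genes tested. The other 61 genes lay within 2-fold. The traffic genes had higher levels than the middle of the genes tested, and shares over all genes of like level and depth were not taken. With a lower read minimum the shares of all genes were larger, as given further on, so these shares may differ through level alone. The median log2 ratio of the 68 was 0.25, between quartiles of -0.13 and 0.53, while the 8249 genes had a median of 0.10 between quartiles of -0.37 and 0.56. Of the 68 genes, 42 (61.8%) lay above the median of all genes tested and 26 below it.

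Roles differed in how their genes lay about the median of all genes. All 3 COPII genes, 8 of 9 adaptor genes, 6 of 7 genes of Arf GTPases and their exchange factors, 4 of 6 COPI genes, 4 of 5 exocyst genes and 3 of 4 TRAPP genes lay above the median of all genes. All 3 Ypt genes and 5 of 8 SNARE genes lay below it, and the Golgi genes were split 7 to 7. The counts include 4 genes whose most-read isoform is described as another protein: YPTM2 and YPTV4 (Ypt), exo70 (exocyst) and TRAPPC2L (TRAPP). The TRAPPC2L isoform alone, at -0.03, lay below the median of all genes. These counts describe 2 libraries, and whether the roles differ from one another was not tested.

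**Figure D2:**
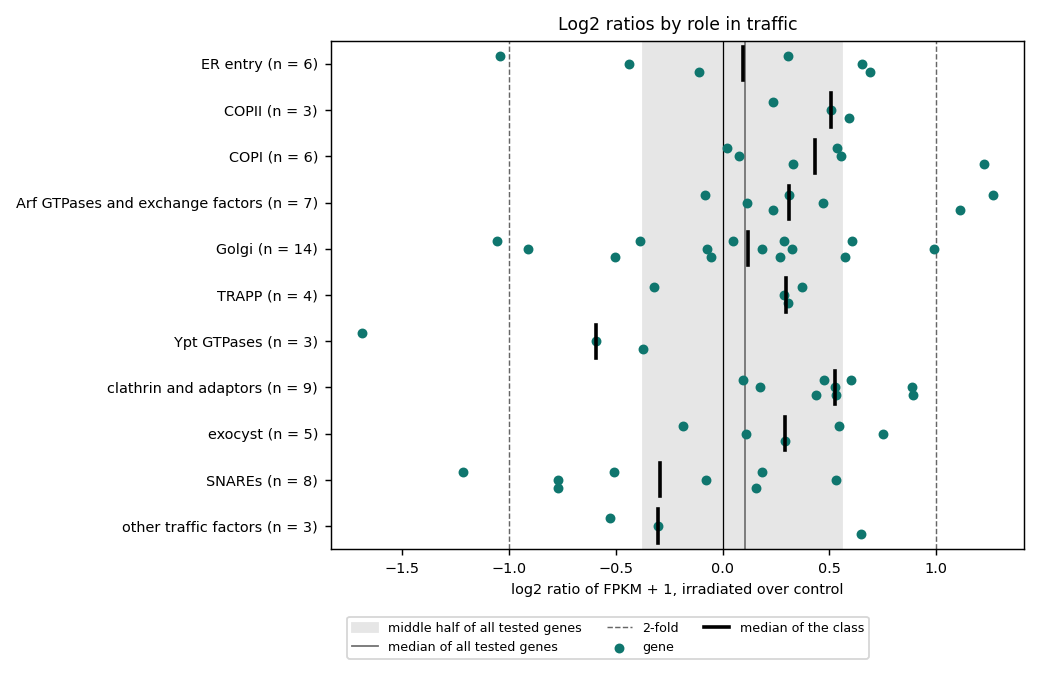
Log2 ratios of the 68 measured genes (points) by role, with the median of each role (black bar), the median of all 8249 genes tested (grey line, 0.10) and the span between their quartiles (grey band, -0.37 to 0.56). Adaptor genes run from 0.09 to 0.89, SNARE genes from -1.21 to 0.53 and Ypt genes from -1.69 to -0.37. The Ypt, exocyst and TRAPP points include genes whose most-read isoform is described as another protein.

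Entry into the ER was represented by 6 measured genes of 36, with a median log2 ratio of 0.10. The alpha subunit of the Sec61 channel (sec-61, TBIU043853), the pore through which new proteins pass, had 257 FPKM in the irradiated library and 159 FPKM in the control library (log2 ratio 0.69, interval 0.28 to 1.05). It rested on 240.1 scaled reads, and its 0.577 scaled reads per FPKM, against a median of 8.19 for the measured traffic genes, mark a short assembled transcript. The beta subunit of the channel (SBH1, TBIU013896) was the most abundant gene of the role, at 354 FPKM in the irradiated library and 382 FPKM in the control library (log2 ratio -0.11). The channel subunits thus lay on either side of 0.

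The signal recognition particle and its receptor also lay on opposite sides. SRP68 (TBIU007251), a protein of the particle, had 94.6 FPKM in the irradiated library and 76.4 FPKM in the control library (log2 ratio 0.30). Its 9 kDa protein (ZK512.4, TBIU008402) had 87.8 FPKM in the irradiated library and 55.6 FPKM in the control library (log2 ratio 0.65). The receptor on the ER membrane was lower in the irradiated library in both of its subunits. Its alpha subunit (Gtp-bp, TBIU005640), a GTPase that docks the particle, had 29.2 FPKM in the irradiated library and 61.2 FPKM in the control library, a log2 ratio of -1.04 (interval -1.39 to -0.91). Its beta subunit (SRPRB, TBIU013977) had 37.1 FPKM in the irradiated library and 50.6 FPKM in the control library (log2 ratio -0.44).

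COPII, the coat of vesicles that leave the ER, had 3 measured genes, all above the median of all genes. SEC23 (TBIU019340), the inner coat protein that activates the GTPase of the coat, had 357 FPKM in the irradiated library and 236 FPKM in the control library (log2 ratio 0.59). Its interval of 0.25 to 0.37 lies below the FPKM ratio, and its isoforms, given further on, differed in their ratios. SEC24 (TBIU016474), which binds cargo, had 67.9 FPKM in the irradiated library and 57.5 FPKM in the control library (log2 ratio 0.23). A second gene of that kind, SEC24D (TBIU014976), had 38.6 FPKM in the irradiated library and 26.9 FPKM in the control library (log2 ratio 0.51). The COPII gene with the most reads was therefore also the most abundant. Each of the 3 was higher in the irradiated library, while 55.9% of all genes tested had a log2 ratio above 0.

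The matched genes held only traces of other COPII parts. SAR1, the GTPase that starts the coat, was matched by 5 genes with 17.7 scaled reads in all, SEC13 by 4 genes with 9.81 and SEC31 by 2 genes with 5.04. The same held for clathrin chains (7 genes, 11.9 scaled reads in all), signal peptidase (4 genes, 21.3), the 54 kDa protein of the signal recognition particle (7 genes, 19.8) and coatomer beta (7 genes, 16.9). No ratio is given for these. Only 21855 of the 57717 transcripts carry a description, and whether abundant copies of these genes lie among the rest was not tested.

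**Figure D3:**
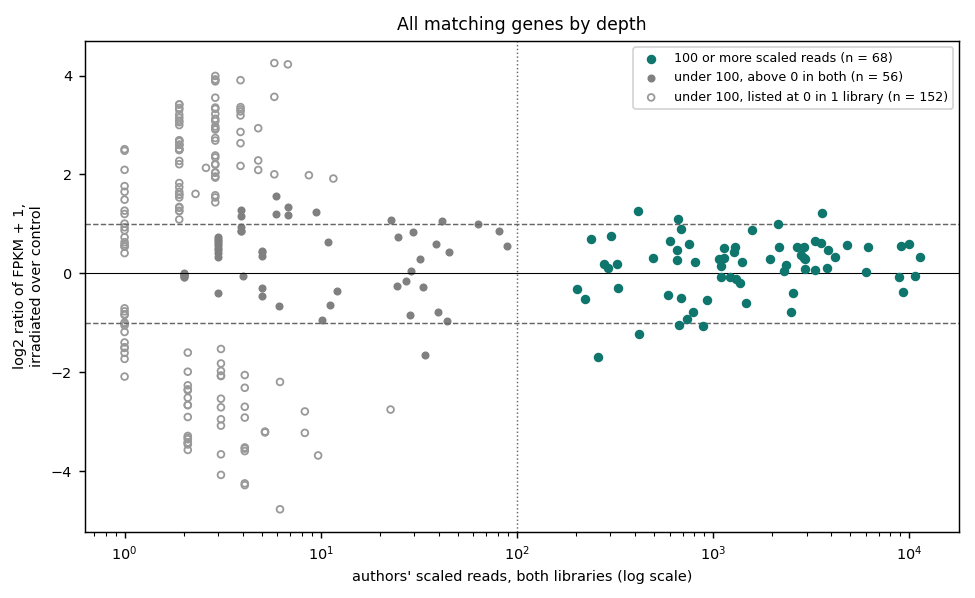
Log2 ratio against the authors' scaled reads over both libraries (log scale) for all 276 matched genes: 68 with 100 or more scaled reads (green), 56 with fewer and above 0 in both libraries (grey), and 152 with fewer and listed at 0 in 1 library (open). Ratios spread from -4.77 to 4.25 below 100 scaled reads and from -1.69 to 1.26 above.

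COPI, the coat of vesicles that return from the Golgi to the ER, had 6 measured subunits of 37 matched genes. The gamma subunit (sec21, TBIU057954), which binds the Arf GTPase, had 833 FPKM in the irradiated library and 356 FPKM in the control library, a log2 ratio of 1.22 (interval 1.06 to 1.27). It was the most abundant of the 68 genes in the irradiated library, and 94.5% of all genes tested had a lower ratio. Its 3.03 scaled reads per FPKM, against a median of 8.19 for the measured traffic genes, mark a short assembled transcript. Copb2 and Copa, of the same coat, had 21.8 and 31.9, so levels are less safely ranked between these subunits. The other subunits were less far apart. Copb2 (TBIU024108, the beta' subunit) had 247 FPKM in the irradiated library and 168 FPKM in the control library (log2 ratio 0.55), and ret2 (TBIU004154, delta) had 118 FPKM in the irradiated library and 80.9 FPKM in the control library (0.54). Copa (TBIU022394, alpha), the scaffold subunit with the most reads of all 68 genes, had 197 FPKM in the irradiated library and 157 FPKM in the control library (0.33). COPE (TBIU010437, epsilon) and ret3 (TBIU009631, zeta) had log2 ratios of 0.08 and 0.02. These are below the median of all genes, and in the authors' scaled values neither lay above 0. Without gamma, the coat's subunits had a median log2 ratio of 0.33 and ran from 118 to 415 FPKM in the irradiated library and from 80.9 to 408 FPKM in the control library.

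The Arf GTPases recruit coats to membranes, and exchange factors with a Sec7 domain load them with GTP. The most abundant Arf gene (NCU08340, TBIU038355) had 343 FPKM in the irradiated library and 292 FPKM in the control library (log2 ratio 0.23, interval -0.02 to 0.39). ARF6 (TBIU007280) had 312 FPKM in the irradiated library and 288 FPKM in the control library (0.12). The scaled reads per FPKM were 1.27 for NCU08340, a short assembled transcript, and 6.33 for ARF6, so their levels are less safely ranked. The strongest differences were in scarcer genes. The Arf-like GTPase ARL3 (TBIU008318), whose yeast namesake acts at the Golgi, had 40.7 FPKM in the irradiated library and 16.4 FPKM in the control library, a log2 ratio of 1.26 (interval 0.92 to 1.54). A gene described as sec73 (TBIU059252), an exchange factor of the Sec7 kind in fission yeast, had 46.2 FPKM in the irradiated library and 20.8 FPKM in the control library, a log2 ratio of 1.11 (interval 0.83 to 1.31). The intervals of both reach below 2-fold. The Golgi exchange factor GBF1 (TBIU025374) and the Arf-like ARL2 (TBIU008827), known for its part in tubulin folding, had log2 ratios of 0.31 and 0.47.

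Golgi genes were the largest role, with 14 measured genes and a median log2 ratio of 0.12. The tether COG, which catches vesicles that move within the Golgi, had 3 measured subunits, all above the median of all genes. Cog2 (TBIU018671) had 88.8 FPKM in the irradiated library and 58.0 FPKM in the control library (log2 ratio 0.61), COG1 (TBIU021805) had 109 FPKM and 73.2 FPKM in the same libraries (0.57), and COG5 (TBIU021084) had 61.8 FPKM and 50.4 FPKM (0.29). A gene described as TANGO2 (TBIU022080), a Golgi organisation factor first named in flies, had 68.6 FPKM in the irradiated library and 34.0 FPKM in the control library (0.99), just within 2-fold. On its matching isoforms alone its log2 ratio was 1.19.

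Of the 14 Golgi genes, 8 had a log2 ratio above 0 and 6 were lower in the irradiated library, while 55.9% of all genes tested were above 0. The stacking protein Gorasp2 (TBIU007055), which holds Golgi cisternae together in animals, had 37.6 FPKM in the irradiated library and 79.3 FPKM in the control library, a log2 ratio of -1.06 (interval -1.36 to -0.94). The genes TBIU015118 and TBIU003782, of the same description but under 100 scaled reads, were listed higher in the irradiated library. They had 18.6 and 7.48 FPKM there, against 9.88 and 4.81 FPKM in the control library, and both intervals cover 0. SFT2 (TBIU010868), a membrane protein of Golgi traffic in yeast, had 53.3 FPKM in the irradiated library and 101 FPKM in the control library (-0.91), and relative to the median of all genes it was the additional gene at least 2-fold lower (-1.02). The TVP38 genes of the Golgi membrane were lower as well, TBIU005460 at 200.5 FPKM in the irradiated library and 263 FPKM in the control library (-0.39) and TBIU019404 at 27.7 FPKM and 39.7 FPKM in the same libraries (-0.50). The most abundant Golgi genes differed little. A membrane protein gene named SPAC23H3.04 (TBIU047465) had 396 FPKM in the irradiated library and 417 FPKM in the control library (-0.07), and a second of that name (TBIU010725) had 387 FPKM and 403 FPKM in the same libraries (-0.06). The remaining Golgi genes, hrf1 (TBIU011803, described as yif1), gpr89 (TBIU007575), TVP23 (TBIU004349) and GOLGA7 (TBIU014872), had log2 ratios of 0.33, 0.27, 0.19 and 0.05, and that of GOLGA7 was below 0 in the authors' scaled values.

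Ypt GTPases guide vesicles to their target membrane. Each of the 3 measured genes was lower in the irradiated library, while 55.9% of all genes tested had a log2 ratio above 0. The most abundant, ypt-1 (TBIU006256), which controls traffic from the ER to the Golgi, had 634 FPKM in the irradiated library and 821 FPKM in the control library, a log2 ratio of -0.37 (interval -0.51 to -0.39). It was the most abundant of the 68 genes in the control library. YPTV4 (TBIU008378), whose most-read isoform is described as RABB1b and others as yptV4, YPTC4 and Rab-4A, had 74.9 FPKM in the irradiated library and 114 FPKM in the control library (-0.59). The gene that entered as YPTM2 (TBIU008080) had 13.6 FPKM in the irradiated library and 46.0 FPKM in the control library, the lowest log2 ratio of the 68 at -1.69 (interval -1.78 to -0.97). Its isoform described as YPTM2 held only 2.9 of its 258 scaled reads. Its main isoforms are described as Rab-18 (TBIU055324, 5.7 FPKM in the irradiated library and 34.8 FPKM in the control library) and Rab-1B (TBIU008079, 5.12 FPKM and 8.45 FPKM), so its ratio is not one of a YPTM2 transcript. Rab genes outside the matched set did not share one direction. RAB11A (TBIU008664), a Rab of recycling endosomes in animals, had 421 FPKM in the irradiated library and 341 FPKM in the control library (0.30), and RABG2 (TBIU046053) had 141 FPKM and 101 FPKM in the same libraries (0.47). A gene described as Rab7 (TBIU015284), a Rab of late endosomes and vacuoles, had 370 FPKM in the irradiated library and 415 FPKM in the control library (-0.16).

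The TRAPP complex activates Ypt1 on the membranes that vesicles reach. Its measured genes trapcc10-1 (TBIU021569), Trappc12 (TBIU012127) and TRAPPC2L (TBIU023558) had log2 ratios of 0.37, 0.31 and 0.29, and Trappc6b (TBIU009187), at 15.9 FPKM in the irradiated library and 20.1 FPKM in the control library, had -0.32. Trappc12 was the most abundant of them, at 55.4 FPKM in the irradiated library and 44.6 FPKM in the control library. Another isoform of TRAPPC2L, with 680 of its 1077 scaled reads, is described as a nicotinate phosphoribosyltransferase, and the TRAPPC2L isoform alone had 23.3 FPKM in the irradiated library and 23.8 FPKM in the control library (-0.03). All measured TRAPP genes lay within 2-fold, while 9.32% of all genes tested were at least 2-fold higher and 8.68% lower.

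Adaptor complexes link clathrin to cargo (AP-1 at the Golgi and endosomes, AP-2 at the plasma membrane), while AP-3 serves the route to the vacuole. All 9 measured genes had a higher level in the irradiated library, while 55.9% of all genes tested had a log2 ratio above 0. The median log2 ratio of the 9 was 0.53, against 0.10 for all genes tested. The mu subunit of AP-1, which reads sorting signals, was the most abundant (AP1M1, TBIU011543), at 329 FPKM in the irradiated library and 228 FPKM in the control library (0.53, interval 0.38 to 0.53). A second AP-1 mu gene (Ap1m1, TBIU003760) had 73.3 FPKM in the irradiated library and 48.0 FPKM in the control library (0.60), and the AP-1 sigma gene vas2 (TBIU005875) had 148 FPKM and 109 FPKM in the same libraries (0.44). The AP-1 genes thus lay within a narrow range.

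In AP-2, the sigma gene aps-2 (TBIU004521), a small core subunit, had 58.7 FPKM in the irradiated library and 31.2 FPKM in the control library (log2 ratio 0.89, interval 0.61 to 1.07). The AP-2 mu gene apm2 (TBIU008780) had 221 FPKM in the irradiated library and 159 FPKM in the control library (0.48). AP-3 subunits spread more widely. The beta gene AP3B1 (TBIU005217) had 123 FPKM in the irradiated library and 66.1 FPKM in the control library (0.89, interval 0.67 to 0.97), and the sigma gene aps3 (TBIU007619) had 138 FPKM and 94.8 FPKM in the same libraries (0.53). The mu gene AP3M1 (TBIU016212) and the delta gene Ap3d1 (TBIU011597) had log2 ratios of 0.18 and 0.09, the second just below the median of all genes, and both intervals cover 0. None of the 9 reached 2-fold, while 9.32% of all genes tested were at least 2-fold higher and 8.68% lower.

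The exocyst tethers secretory vesicles to the plasma membrane. Its scaffold subunit sec8 (TBIU019756) had the highest mean level of 5 measured genes, at 56.5 FPKM in the irradiated library and 38.4 FPKM in the control library (log2 ratio 0.54, interval 0.51 to 0.73). EXOC7 (TBIU022744) had 46.5 FPKM in the irradiated library and 27.2 FPKM in the control library (0.75), and exo70 (TBIU022746) had 46.3 FPKM and 37.7 FPKM in the same libraries (0.29). Both names stand for the same membrane-binding subunit, and the genes share an assembly cluster, so they may not be independent. Most reads of the second belong to isoforms described as unc-50 homologs, and its exo70 isoform had 3.96 FPKM in the irradiated library and 1.48 FPKM in the control library. EXOC5 (TBIU067559) had a log2 ratio of 0.11, and EXO84 (TBIU021647), the gene of the complex below 0, had 34.7 FPKM in the irradiated library and 39.5 FPKM in the control library (-0.18), the highest level of the 5 in the control library.

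SNARE proteins pair across membranes and pull them together, and their median log2 ratio was -0.30 over 8 measured genes. The lowest was SEC22 (TBIU009427), a SNARE of traffic between the ER and the Golgi, at 22.5 FPKM in the irradiated library and 53.5 FPKM in the control library, a log2 ratio of -1.21 (interval -1.64 to -1.02). The SNAREs YKT6 (TBIU054743), which acts on several routes to the vacuole and Golgi, and sec9 (TBIU019044), which acts at the plasma membrane, both had a log2 ratio of -0.77. YKT6 had 14.7 FPKM in the irradiated library and 25.7 FPKM in the control library, and sec9 had 55.7 FPKM and 95.7 FPKM in the same libraries. VTI1 (TBIU007140), a SNARE of Golgi and endosomes, had 40.5 FPKM in the irradiated library and 58.1 FPKM in the control library (-0.51) on 221.6 scaled reads. These 4 genes lay below the lower quartile of all genes tested.

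The other SNAREs were closer to 0 or above it. The most abundant, bet1 (TBIU005824), a partner of SEC22 in yeast, had 101 FPKM in the irradiated library and 107 FPKM in the control library (log2 ratio -0.08, interval -0.32 to 0.02). The plasma membrane syntaxin psy1 (TBIU001423), the partner of sec9 in fission yeast, had 75.2 FPKM in the irradiated library and 67.4 FPKM in the control library (0.16). The late Golgi SNARE tlg2 (TBIU011570) had 16.6 FPKM in the irradiated library and 14.5 FPKM in the control library (0.18). The Golgi SNARE Gosr1 (TBIU008418) was the highest, at 78.1 FPKM in the irradiated library and 53.9 FPKM in the control library (0.53, interval 0.33 to 0.58). A gene of sec1 (TBIU018813), which binds SNAREs at the plasma membrane, had 145 FPKM in the irradiated library and 92.4 FPKM in the control library (0.65), while a second, scarcer sec1 gene (TBIU006094) had 21.6 FPKM and 26.9 FPKM in the same libraries (-0.30). Taken alone, the most-read isoform of that second gene gave 0.12. GET4 (TBIU014252), which hands tail-anchored proteins such as SNAREs to the ER in yeast, had 32.7 FPKM in the irradiated library and 47.6 FPKM in the control library (-0.53).

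Isoforms of the same gene did not always share a direction. Of the 68 genes, 30 had several isoforms, 24 had at least 2 isoforms of 100 or more scaled reads, and in 7 of these the isoforms' log2 ratios lay more than 1 apart. The same shares over all genes tested were not computed, so these counts are not read as a trait of traffic genes. The gene of sec9 was the most extreme. Its main isoform (TBIU019044) had 55.7 FPKM in the irradiated library and 62.6 FPKM in the control library (log2 ratio -0.17), while its other isoform (TBIU019043) was listed at 0 in the irradiated library and at 33.1 FPKM in the control library, where it made up 34.6% of the gene's FPKM. In the authors' deposited table this isoform had 0 as the second and 544 as the first of the pair of values, the smallest p-value of the matched transcripts of measured genes (0.000879) and a q-value of 1. By the authors' deposited table, a count of 5 of the 110 matched transcripts of these genes had a p-value under 0.05 (4.55%), against 6.24% of all transcripts of the genes tested. They were the sec9 isoform and 4 weakly covered isoforms of TVP38 (TBIU019404), and the q-value in the authors' deposited table was 1 for all 324 matched transcripts.

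SEC23 showed the reverse pattern. Its second isoform (TBIU019341) had 96.5 FPKM in the irradiated library and 17.7 FPKM in the control library, a log2 ratio of 2.38 (interval 2.09 to 2.67), and made up 27.1% of the gene's FPKM in the irradiated library and 7.5% in the control library. The main isoform (TBIU019340) had 260 FPKM in the irradiated library and 218 FPKM in the control library (0.25), a smaller ratio than that of the gene as a whole. In TVP38 (TBIU019404), with 12 isoforms, the most-read isoform had 3.98 FPKM in the irradiated library and 16.8 FPKM in the control library, and another (TBIU019407) had 7.31 FPKM and 3.8 FPKM in the same libraries. The adaptor aps3 and the exocyst gene sec8 each had a minor isoform lower in the irradiated library (log2 ratios -1.13 and -0.61) beside a main isoform that was higher (0.75 and 0.80). No source used here says how the authors divided reads between similar isoforms, and its part in these differences was not tested.

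**Figure D4:**
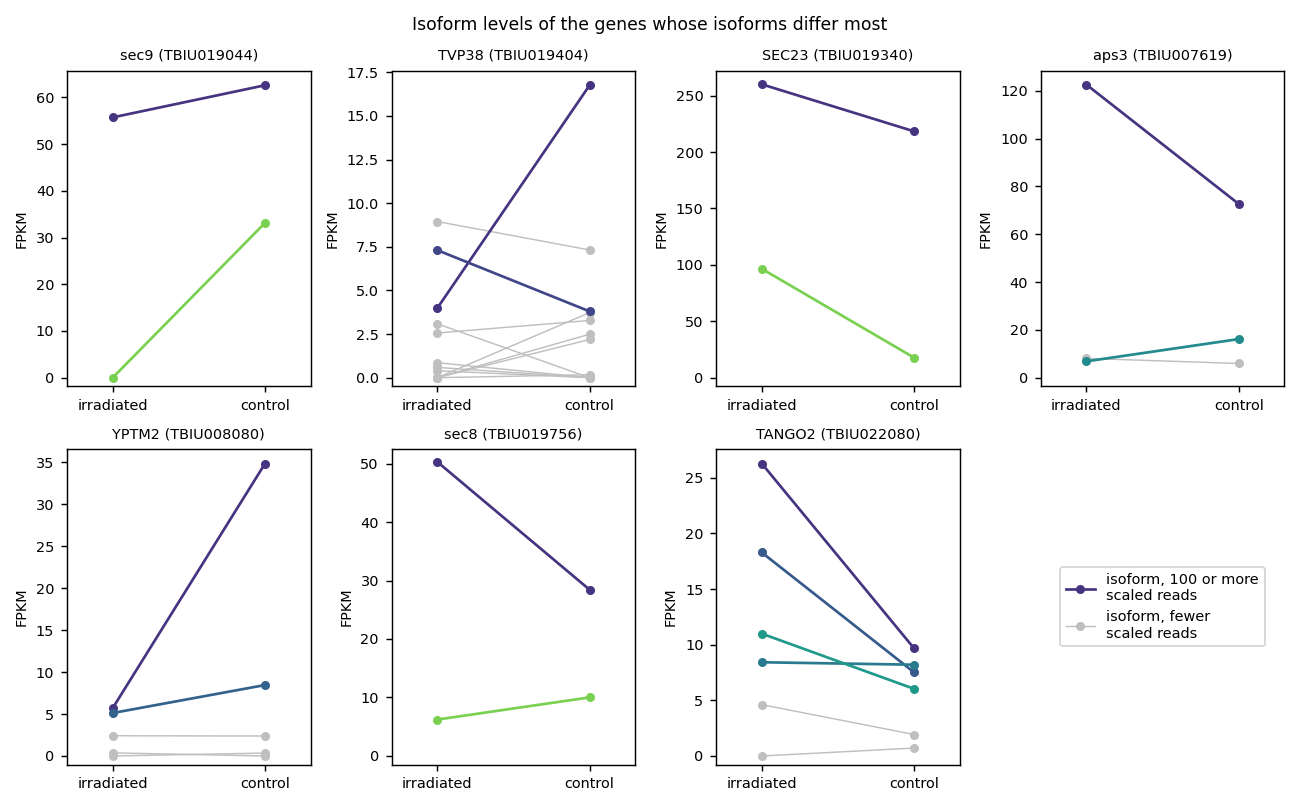
FPKM of each isoform in the irradiated library (left) and the control library (right) for the 7 genes with isoforms of 100 or more scaled reads whose log2 ratios lay more than 1 apart (coloured lines; isoforms with fewer reads in grey). The second sec9 isoform is listed at 0 in the irradiated library and at 33.1 FPKM in the control library, and the second SEC23 isoform is at 96.5 and 17.7 FPKM in these libraries.

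Other genes of vesicle traffic, outside the matched set, were taken from a second list of descriptions (vacuolar protein sorting, Rab, sorting nexin, Sec62 and Sec63, dynamin and similar). Of 119 such genes, 31 had 100 or more scaled reads, and 0 of them reached 2-fold in either direction, against the shares of all genes given above. Their median log2 ratio was 0.30, within a range from -0.86 to 0.86, against a median of 0.10 for all genes tested. Above 0 were 20 of the 31, against 55.9% of all genes tested. The count of 0 at 2-fold depends on leaving out genes of the matched set. The gene that entered as YPTM2 (TBIU008080, -1.69) was left out in this way, though its main isoforms are described as Rab-18 and Rab-1B. Placed by those isoforms, it would be a gene of this list at least 2-fold lower, and the matched set would lose it. At the top of the 31 were the endosomal sodium exchanger NHX1 (TBIU057893), with 349 FPKM in the irradiated library and 192 FPKM in the control library (0.86), and the retromer-type gene vps26bl (TBIU006068), with 184 FPKM and 105 FPKM in the same libraries (0.81). The lowest was vps55 (TBIU056021), a gene of endosome to vacuole traffic in yeast, with 119 FPKM in the irradiated library and 218 FPKM in the control library (-0.86). These 3 were named after their values were seen. The most-read gene of this list, the dynamin-related vps1 (TBIU018914), had 516 FPKM in the irradiated library and 417 FPKM in the control library (0.31).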

How the data were processed

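Each group had 1 library of 1000 ng of total RNA, matched to its column by the name in its label. The authors deposited FPKM per assembled transcript (named in the file headers, given to 2 decimals), a log2 fold change with its p-value and q-value, and a pair of further values whose unit the headers do not name. These deposited values behave as estimated reads divided by a factor per library, carry no sample name, and summed to 8872431 and 8404057. Their ratio, second over first, equals the authors' log2 fold change within 0.02 in 99.9% of transcripts above 0 in both. What aligned, assembled and counted the reads was not given in the sources used here. Raw depth is unknown.

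The pair was used only as the authors' comparison and, summed, as depth (scaled reads). Isoforms were summed for each assembled gene, and a minimum of 100 scaled reads was set. A gene at least 2-fold apart on FPKM + 1 was counted as higher or lower. Counting intervals are exact Clopper-Pearson 95% intervals on the rounded scaled values, not on FPKM, so FPKM ratios can lie outside them. The median log2 ratio of all genes tested was 0.035 on the scaled values, against 0.104 on FPKM. Intervals therefore tend to lie somewhat below the FPKM ratios, and where they are read against 0 or 2-fold, that is on the scaled values. They leave out differences between fruit bodies. No p-value was computed. Counting was tested on simulated data. Genes named are those at least 2-fold apart, the highest, lowest and most abundant of each of 11 roles, the 5 most abundant, and any whose most-read isoform points the other way. Other measured members are also given, except 1 that is counted but not reported here by name or level. Members and lists were chosen with earlier results of these data known, and roles were assigned from descriptions. Python 3.11.15, pandas 2.3.3 and scipy 1.17.1 were used.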

Additional observations from a re-analysis of the deposited data

How the results depend on the processing

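The counts of 3 higher and 4 lower genes moved by at most 1.5 times, and the median log2 ratio of 0.25 lay between 0.15 and 0.26, with ratios centred on all genes, a pseudocount of 0.1, the most-read isoform alone and the authors' scaled values. They also did so with matching isoforms alone, and without the 4 genes whose most-read isoform is described as another protein, alternatives chosen after seeing the data. A pseudocount of 5 left 2 genes lower, and put Gtp-bp, Gorasp2 and sec73 within 2-fold. With 20 or more scaled reads, 6 of 87 genes were higher and 6 lower, against 11.3% and 11.7% of all genes. A filter at a mean level of 10 FPKM gave 5 higher and 5 lower of 76, against 12.6% and 12.1%. With no filter 99 of 276 genes were higher and 58 lower, with a median of 0.51, against 32.7% higher and 27.3% lower of all genes, since most added genes have few reads. Among the other traffic genes, 1 of 34 was lower with 20 or more scaled reads, against 11.7% of all genes. With no filter, 46 of 119 such genes were higher and 25 lower, against 32.7% and 27.3% of all genes. Of 191 values of the 32 named genes under alternatives, 20 moved beyond the counting interval's half-width, 5 changed sign and 0 of those at least 2-fold apart did. No paired analysis was possible because each group has 1 library, and no library could be left out. Below 100 scaled reads, ratios were not read, and the median half-width of the intervals above it was 0.16.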
